A study of Cyprinus carpio with 2 samples.

Results

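Hydroxysteroid dehydrogenases, steroid 5-alpha-reductases and the lipoprotein receptor scarb1 were examined in gonads of juvenile common carp (Cyprinus carpio) that had not yet matured. Members were taken by name, with earlier results of these data known. Every unigene (a numbered transcript unit of the deposited tables) was kept whose first gene name begins with hsd and a digit or with srd5a, or is scarb1. This gave 19 of the 22634 unigenes, carrying 12 of the 9494 gene symbols. The study compared the transcripts of 1 testis library and 1 ovary library, both from juvenile fish of 110 to 130 days post hatch, with no treatment or genotype named. RNA was taken from individual gonads, and the number of fish behind each library is not stated in the labels.

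Hydroxysteroid dehydrogenases exchange a hydroxyl and a keto group on steroids and related molecules. Some of them set the activity of sex steroids and glucocorticoids in gonads, while others carry the family name but work mainly on fatty acids, cholesterol precursors or amino acid breakdown. Steroid 5-alpha-reductases remove a double bond from steroids such as testosterone, and one branch of that family acts on polyprenols instead. In vertebrate gonads the substrate for all steroid hormones is cholesterol, which the scarb1 protein (scavenger receptor class B type 1) takes up from high-density lipoprotein.

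The members held 927 testis and 3857 ovary reads, out of 1926860 testis and 4311799 ovary reads over all unigenes of the tables. A read here is 1 step of the deposited values, 1.73 units in testis and 2.31 units in ovary. How the authors scaled reads to these units is not stated in the sources used here. The value columns do not name a tissue. They were assigned from the authors' own lists, since one column is the higher in all 171 unigenes of their testis list and the other in all 127 of their ovary list. Every direction below rests on those titles. Marker sums follow but are no independent check of this, since the markers were chosen with earlier results of these data known. Testis somatic markers (4 of 7 symbols with rows, 4 unigenes) summed to 3648 units in testis and 69.3 units in ovary. Oocyte markers (9 of 9 symbols, 25 unigenes) summed to 21093 units in testis and 485434 units in ovary. None of the 10 markers of steroid-producing cells matched a row, among them star, cyp11a1, cyp17a1 and cyp19a1a, so these were not analysed here. No row matched hsd3b1, hsd17b1, hsd17b3, hsd11b2 or srd5a2 either. In both libraries 0 unigenes are listed at 0, so a transcript read in one tissue alone may have no row. Summed reads of markers of other tissues were lower in testis, without scaling to the read totals, which are higher in ovary. Skeletal muscle had 39 testis and 928 ovary reads over 5 unigenes, and erythrocytes 57 testis and 471 ovary reads over 1 unigene. Liver had 49 testis and 159 ovary reads over 7 unigenes, and immune cells 566 testis and 2989 ovary reads over 10 unigenes. Single unigenes held most of 2 ovary sums, tnni2b.1 with 758 reads in skeletal muscle and il1b with 2308 in immune cells. Of the immune cell unigenes, though, 5 lay 4-fold or more to the testis side and 2 to the ovary side. Liver unigenes of fga went both ways, with 12 testis and 7 ovary, 14 and 6, 7 and 7, and 6 and 15 reads. The part of these other tissues in the results was not tested. A single unigene of the kidney and interrenal markers had rows, with 1 testis and 3 ovary reads.

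In deposited units 15 of the 19 unigenes were lower in testis (78.9%, against 68.7% of all unigenes) and 4 were higher. A read counts 1.73 units in testis and 2.31 units in ovary, which enters every comparison of deposited values. Ovary has both the larger step and the larger read total, so deposited units widen the difference in totals. In these units the median unigene of the whole table was itself 1.78-fold higher in ovary. Folds are therefore given relative to that median unless called deposited. On that scale 14 members lay below the median of all unigenes and 5 above it. The score of a unigene is the log2 ratio of testis to ovary, each with 1 unit added, less the median of that ratio over all unigenes. Its median over the 19 members was -1.05, against 0 by construction over all unigenes, and ranged from -3.39 in scarb1 to 4.28 in one hsd11b1l unigene. All unigenes had a lower quartile of -1.06 and an upper quartile of 1.11. Since each tissue has 1 library, differences could not be set against replicate spread and no test was run. Exact Clopper-Pearson 95% intervals are given for ratios of reads, and these cover counting error only. Fewer cells of a type and less RNA per cell cannot be told apart in tissue libraries such as these.

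**Figure D1:**
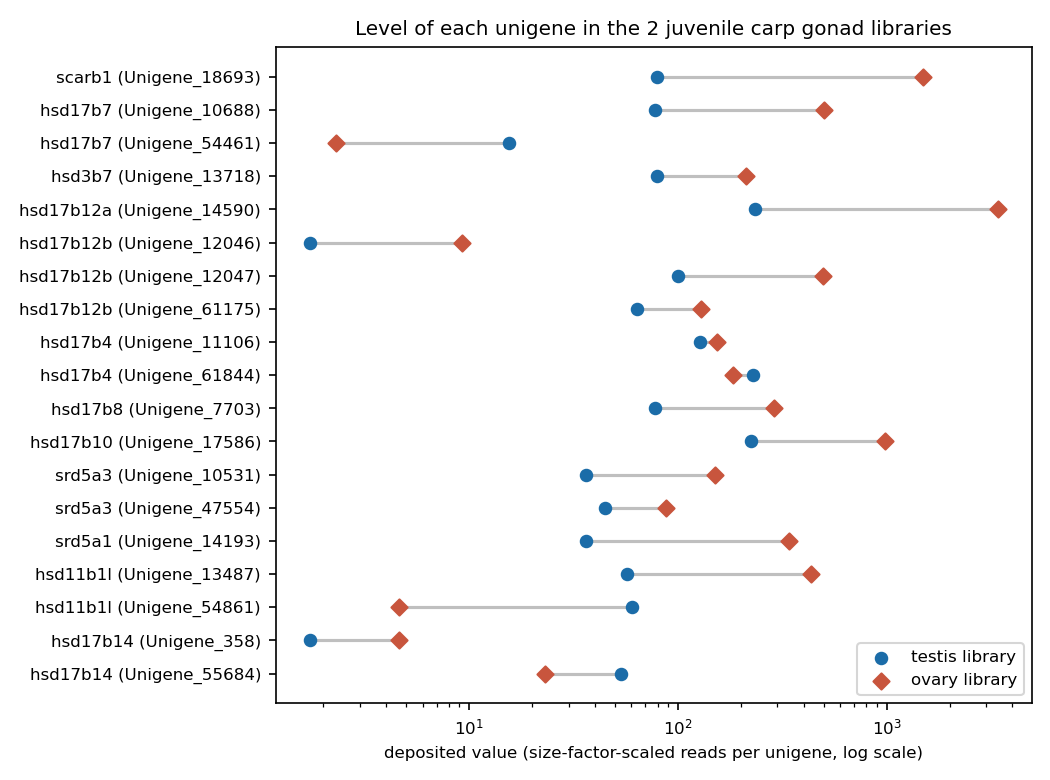
Deposited value of each of the 19 unigenes (log axis) in the testis library (circles) and the ovary library (diamonds), 1 library each. The axis label calls the values size-factor-scaled reads, but how the authors scaled them is not stated. The testis point lies left of the ovary point in 15 rows, and the widest gaps toward ovary are those of scarb1 (79.7 against 1499 units) and hsd17b12a (234 against 3399 units).

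Unigenes were counted as apart where they lay at least 4-fold from the median and the library with more of it had 5 units or more. Of the 19 members 18 reached 5 units; the exception was one hsd17b14 unigene with 1 testis and 2 ovary reads. Among these 18, 3 lay 4-fold or more to the testis side (16.7%, against 13.8% of all 21649 unigenes tested) and 4 to the ovary side (22.2%, against 11.2%). The 3 higher ones were single unigenes of hsd11b1l, hsd17b7 and hsd17b14. The 4 lower ones were scarb1, hsd17b12a, srd5a1 and the other hsd11b1l unigene. Without centring, in values as deposited, 2 of 18 were 4-fold or more higher in testis (11.1%, against 6.14% of all unigenes) and 8 were lower (44.4%, against 23.2%). Counting intervals left out the median ratio toward testis for 5 of 19 members (26.3%, against 27.5% of all unigenes) and toward ovary for 10 (52.6%, against 30.1%), a statement on these libraries rather than on the tissues. Since the member symbols were chosen with earlier results of these data known, the members' shares are no independent support for a lean to either side. None of the 19 is in either list of differing unigenes that the authors deposited. In the authors' deposited table their p-values ran from 0.106 for scarb1 to 0.912 for one hsd17b4 unigene, and 0 of 19 were under 0.05, against 1.39% of all unigenes.

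Cholesterol supply was represented by scarb1 and by the cholesterol-synthesis enzyme hsd17b7. The scarb1 unigene (Unigene_18693) had 79.7 units or 46 reads in testis and 1499 units or 649 reads in ovary. Relative to the median it was 10.6-fold lower in testis (95% interval 7.84 to 14.6), the widest gap toward ovary among the members. The deposited protein name of this unigene is "uncharacterized", and only its gene symbol identifies it. The main hsd17b7 unigene, for a reductase that acts late in cholesterol synthesis and can also reduce estrone in mammals, had 77.9 units or 45 reads in testis and 503 units or 218 reads in ovary. That is 3.63-fold lower in testis (95% interval 2.63 to 5.13). A second hsd17b7 unigene (Unigene_54461) went the other way with 9 testis reads and 1 ovary read, 12-fold higher in testis with an interval of 1.66 to 526, and its score of 3.15 was 1.61 with a pseudocount of 10 units. Summed, the 2 hsd17b7 unigenes held 54 testis and 219 ovary reads and were 3.04-fold lower in testis (95% interval 2.25 to 4.18). The symbol hsd3b7 names an enzyme of bile acid synthesis rather than of sex steroid synthesis. Its unigene had 79.7 units in testis and 212 units in ovary, or 46 testis and 92 ovary reads, and was 1.5-fold lower in testis (95% interval 1.04 to 2.19). That direction was not kept against unigenes of similar number, described below, where its score of -0.58 became 0.28.

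Fatty acid enzymes of the family did not move as one. The protein of hsd17b12a reduces the keto group in each round of very long chain fatty acid elongation, and in mammals its relative can also turn estrone into estradiol. Its unigene (Unigene_14590) had 234 units or 135 reads in testis and 3399 units or 1472 reads in ovary, 8.18-fold lower in testis (95% interval 6.85 to 9.83). The paralogue hsd17b12b had 3 unigenes. The largest of them had 100 units or 58 reads in testis and 497 units or 215 reads in ovary, 2.78-fold lower in testis (95% interval 2.07 to 3.78). A further one had 37 testis and 56 ovary reads, with an interval of 0.736 to 1.77 for ovary over testis that holds 1. Within its own number range, described below, its score of -0.18 became -1.32. Its interval, up to 0.44 in log2 of testis over ovary, lay below the median of that range, 1.14. The smallest had 1 testis and 4 ovary reads. Both paralogues were thus lower in testis, and the interval of the hsd17b12a unigene overlapped neither that of the largest hsd17b12b unigene nor that of the summed hsd17b12b unigenes (2.15-fold, 1.70 to 2.74).

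The peroxisomal enzyme hsd17b4, which carries out consecutive steps of beta oxidation, was nearly even in deposited units. Unigene_61844 had 230 units or 133 reads in testis and 185 units or 80 reads in ovary, and Unigene_11106 had 128 units or 74 reads in testis and 155 units or 67 reads in ovary. Relative to the median they were 2.22-fold (95% interval 1.67 to 2.96) and 1.47-fold (1.04 to 2.08) higher in testis, and summed 1.88-fold (1.51 to 2.34). As deposited, the second of these unigenes was lower in testis though it had more testis than ovary reads, so its direction follows the scaling. Within its own number range the score of the first, 1.14, became 0.003, and that of the second, 0.56, became 1.42. The mitochondrial members lay on the other side of the median of all unigenes. Within their own number range they were closer to the median. There the score of hsd17b8, -1.05, became -0.19, and that of hsd17b10, -1.29, became -0.43. The hsd17b8 product works in mitochondrial fatty acid synthesis, and its unigene was 2.08-fold lower in testis (95% interval 1.47 to 2.998) from 45 testis and 125 ovary reads. For hsd17b10, whose product in mammals acts in isoleucine breakdown and as a subunit of mitochondrial ribonuclease P, the values were 225 units or 130 reads in testis and 981 units or 425 reads in ovary, 2.45-fold lower in testis (2.01 to 3.01).

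Of the steroid 5-alpha-reductases, srd5a1 and srd5a3 had rows. The product of srd5a1 converts testosterone to dihydrotestosterone. Its unigene (Unigene_14193) had 36.4 units or 21 reads in testis and 339 units or 147 reads in ovary, 5.25-fold lower in testis (95% interval 3.31 to 8.74). By contrast srd5a3 encodes polyprenol reductase, which makes dolichol for protein glycosylation. One srd5a3 unigene had 21 testis and 65 ovary reads, 2.32-fold lower in testis (1.40 to 3.998). The other, which is higher-numbered, had 26 testis and 38 ovary reads, and its interval for ovary over testis, 0.648 to 1.88, holds 1. Within its own number range its score of -0.12 became -1.26. Its interval, up to 0.63 in log2 of testis over ovary, lay below the median of that range, 1.14. Summed, srd5a3 was 1.64-fold lower in testis (1.15 to 2.37). The interval of the first srd5a3 unigene, which like srd5a1 is lower-numbered, overlaps that of srd5a1.

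The remaining dehydrogenases, hsd11b1l and hsd17b14, each had a unigene at least 4-fold to the testis side. Protein names in the table call hsd11b1l a type 3 11-beta-hydroxysteroid dehydrogenase, a relative of the enzyme that interconverts active and inactive glucocorticoids. Its 2 unigenes differed from each other more than any other pair of a symbol among the members. Unigene_54861 had 60.6 units or 35 reads in testis and 4.62 units or 2 reads in ovary, 23.3-fold higher in testis (95% interval 5.99 to 200.2). Unigene_13487 had 57.2 units or 33 reads in testis and 436 units or 189 reads in ovary, 4.30-fold lower in testis (2.96 to 6.42). The deposited values of the 2 unigenes were close in testis and far apart in ovary. Since unigene lengths are not known, this does not place the difference between them in either tissue. Together they held 68 testis and 191 ovary reads and were 2.11-fold lower in testis (1.59 to 2.82), so the sum follows the unigene with more reads. The hsd17b14 product oxidises estradiol in mammals. Its main unigene had 53.7 units or 31 reads in testis and 23.1 units or 10 reads in ovary, 4.13-fold higher in testis (1.97 to 9.45). Its score of 2.01 lay just past the 4-fold line, and was 1.98 after centring by a trimmed mean of log ratios and 1.18 as deposited.

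**Figure D2:**
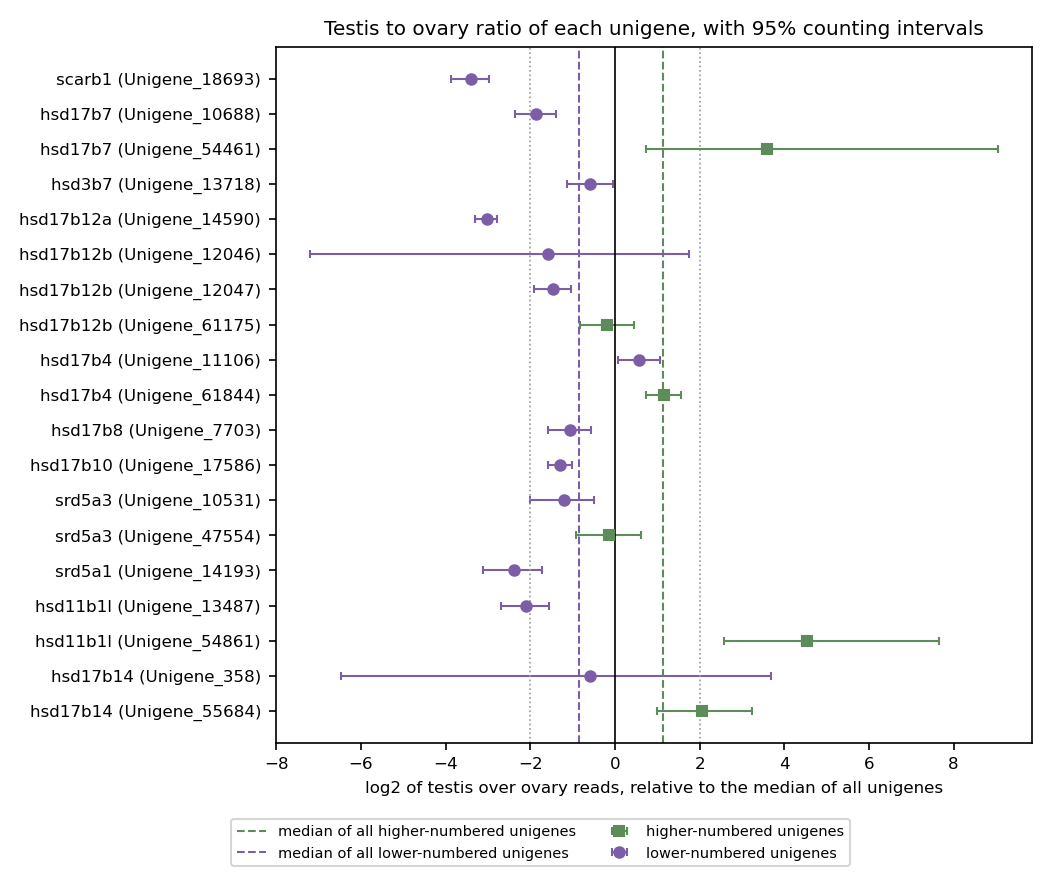
Log2 of testis over ovary reads for each unigene, relative to the median of all unigenes (solid line at 0), with exact 95% counting intervals; dotted lines mark 4-fold and dashed lines the median of all unigenes in each range of unigene numbers. Squares are higher-numbered unigenes and circles lower-numbered ones; scarb1, hsd17b12a, srd5a1 and 1 hsd11b1l unigene lie left of the left dotted line.

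The ratio moved with the unigene number over the whole table. Divided at a boundary chosen with the ratios known, the 10730 higher-numbered unigenes (numbers 23712 and up) had a median score of 1.14, and the 11904 lower-numbered ones had -0.86. Of the members 6 fall in the first range, with scores from -0.18 to 4.28 and a median of 1.58, and 13 in the second, with scores from -3.39 to 0.56 and a median of -1.29. All 6 symbols with a single unigene are in the lower range, whose own median is -0.86, and all 6 lay below the median of all unigenes. The same share over all symbols with a single unigene was not counted, so this is not read as a trait of the members. The other 6 symbols have unigenes in both ranges, and in 6 of 6 the higher-numbered unigene leaned more to testis than the lower-numbered ones. The same held for 4303 of all 4490 symbols with unigenes in both ranges (95.8%), so the members' share is near that background. The difference within a symbol had a median of 1.67 over all such symbols. Among the members it was 6.37 for hsd11b1l, 5.001 for hsd17b7, 2.22 for hsd17b14, 1.29 for hsd17b12b, 1.07 for srd5a3 and 0.59 for hsd17b4.

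**Figure D3:**
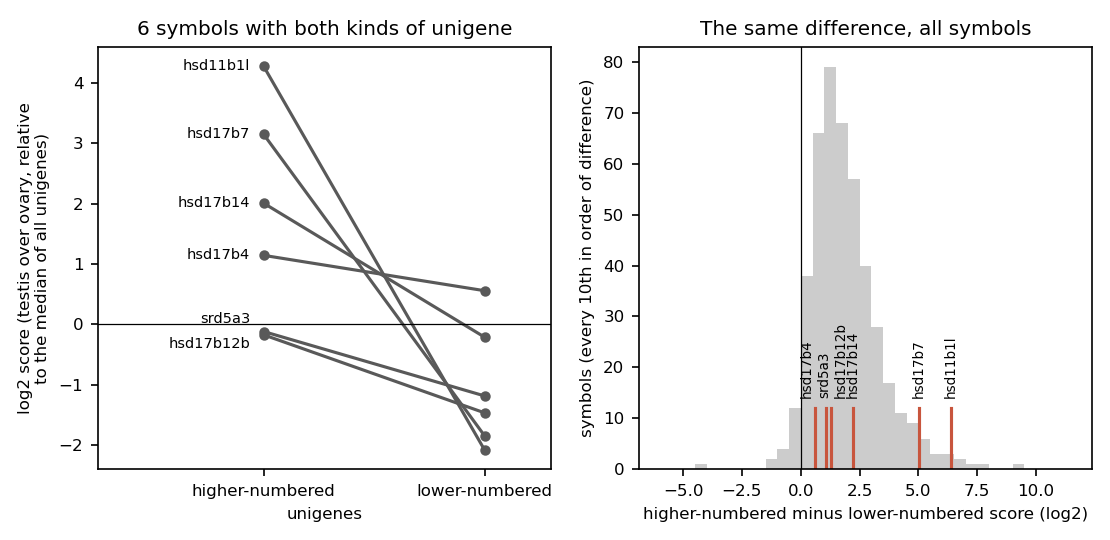
Left, scores (log2 testis over ovary relative to the median of all unigenes) of the 6 member symbols with unigenes in both number ranges, the unigenes of a range summed; every line falls toward the lower-numbered unigenes. Right, histogram of the same difference over every 10th of 4490 symbols in order of size, with the 6 members marked between 0.59 and 6.37.

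Scores set against the median of the unigene's own number range kept scarb1 (-2.53), hsd17b12a (-2.17), Unigene_54861 of hsd11b1l (3.14) and Unigene_54461 of hsd17b7 (2.01) past 4-fold. The last rests on 9 testis reads and 1 ovary read. Its counting interval, from 0.73 in log2, holds the median of its range, 1.14. The score of srd5a1 became -1.50, that of Unigene_13487 of hsd11b1l -1.22 and that of hsd17b14 0.87, which are short of it. On this scale 2 of 18 members lay at least 4-fold to the testis side (11.1%, against 5.45% of all unigenes) and 2 to the ovary side (11.1%, against 7.29%). The median over the 19 members was then -0.33. What sets the difference between number ranges was not tested.

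The 8 lists of neighbouring pathways, with 211 unigenes outside the members, held unigenes on both sides. Pooled, their shares were near those of all unigenes, while single lists differed. Shares of a single list, given below, are of its unigenes with at least 5 units. Of the 201 with at least 5 units, 27 lay at least 4-fold to the testis side (13.4%, against 13.8%) and 29 to the ovary side (14.4%, against 11.2%), with a median score of -0.08 over all 211. Steroid hormone synthesis had rows for 6 of its 25 symbols: cyb5a, fdx1, fdxr, porb, stard3 and tspo. The list's star and cyp symbols had none, so its values do not cover them. Its 12 unigenes had a median of -0.12, and 0 were 4-fold or more higher in testis (against 13.8%) and 2 lower (16.7%, against 11.2%). Those 2 belong to the electron supply of mitochondrial steroid enzymes, fdx1 (ferredoxin, 59 testis and 393 ovary reads, 4.996-fold lower in testis) and fdxr (ferredoxin reductase, 19 testis and 129 ovary reads, 5.09-fold lower). Within number range both had a score of -1.45, and 0 unigenes of this list were 4-fold or more lower. Steroid conjugation and removal, 9 unigenes, had a median of 0.10 (-0.05 within number range and -0.72 as deposited). In it 1 unigene of papss1, from 7 testis and 2 ovary reads, was higher (11.1%, against 13.8%). The sulfotransferase sult2st3 had 1 unigene lower, from 25 testis and 151 ovary reads (11.1%, against 11.2%).

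Lists that share an enzyme class or a substrate with the members also went both ways. Very long chain fatty acid elongation, the pathway of hsd17b12a, had 31 unigenes with a median of 0.69, of which fasn holds 14 and acacb 7. With the unigenes of each symbol summed the median over its 9 symbols was -1.87, and as deposited it was -0.14 over unigenes, so it has no stable direction. Of its 27 unigenes with at least 5 units, 6 were 4-fold or more higher in testis (22.2%, against 13.8%) and 5 lower (18.5%, against 11.2%). Its elongases elovl6l (52 testis and 1207 ovary reads) and elovl7b (102 testis and 2331 ovary reads) were 17.4-fold and 17.1-fold lower in testis. Among the higher ones were a unigene of fasn (16 testis and 1 ovary reads) and several of acacb, which act earlier in fatty acid synthesis. The farthest of acacb had 21 testis and 2 ovary reads. A unigene of the elongase elovl1b was higher too (88 testis and 24 ovary reads, 4.89-fold), while the other elovl1b unigenes lay below the median. The unigenes of elovl6l and elovl7b are lower-numbered, and those named here as higher are higher-numbered. Cholesterol synthesis, 45 unigenes, had a median of 0.35 (-0.48 as deposited) with 9 higher (20.9%, against 13.8%) and 6 lower (14%, against 11.2%). In it 1 unigene of the sterol desaturase sc5d had 80 testis and 3 ovary reads and 1 of acat2, which makes acetoacetyl-CoA, had 26 testis and 641 ovary reads. Lipoprotein uptake and cholesterol handling, 33 unigenes, had a median of 0.45 with 7 higher (22.6%, against 13.8%) and 7 lower (22.6%, against 11.2%). This median was 0.17 over the expression table alone, with 5 higher, and turned to -0.41 within number range, -0.10 with symbols summed and -0.38 as deposited. Its farthest members were the cholesterol exporter abca1a, with 737 testis and 4 ovary reads, and the scarb1 relative scarb2, with 262 testis and 4 ovary reads. Both are in the authors' testis list, which fixed their direction. Among those on the ovary side, the 3 unigenes of vldlr were 11.0-fold, 8.98-fold and 6.48-fold lower in testis. The farthest of npc2 (22 testis and 281 ovary reads) was 9.58-fold lower.

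Peroxisomal beta oxidation, the pathway of hsd17b4, had 29 unigenes with a median of -0.28 (0.02 within number range), 2 higher (7.41%, against 13.8%) and 1 lower (3.7%, against 11.2%). The import receptor pex5 had 53 testis and 2 ovary reads in one unigene, and the dienoyl-CoA reductase decr2 had 20 testis and 148 ovary reads in another. The other decr2 unigenes lay nearer the median, with scores of -0.30 and -0.28. Other short-chain dehydrogenases, 53 unigenes of which 14 are fasn, had a median of 0.28 (-0.54 as deposited), 3 higher (6%, against 13.8%) and 5 lower (10%, against 11.2%). Among them were cbr4, the partner of hsd17b8 in mammals, with 40 testis and 2 ovary reads in one unigene, and the retinol dehydrogenase rdh8b with 2 testis and 60 ovary reads. The other cbr4 unigene, lower-numbered like that of hsd17b8, went the other way with 11 testis and 35 ovary reads, 2.39-fold lower in testis. The list named dolichol synthesis joins the pathway of srd5a3 with enzymes that use dolichol phosphate (alg5, dpm1, dpm2 and dpm3). It had 13 unigenes with a median of -0.83, 0 higher (against 13.8%) and 2 lower (15.4%, against 11.2%), and 11 of the 13 lay below the median of all unigenes. The 2 lower ones were single unigenes of genes with a further unigene short of 4-fold. They were of dpm2, a subunit of the dolichol-phosphate mannose synthase, with 63 testis and 407 ovary reads, and of dolk, the dolichol kinase, with 1 testis and 9 ovary reads. Within number range this list had a median of -0.72, and 0 of its unigenes were 4-fold or more lower.

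**Figure D4:**
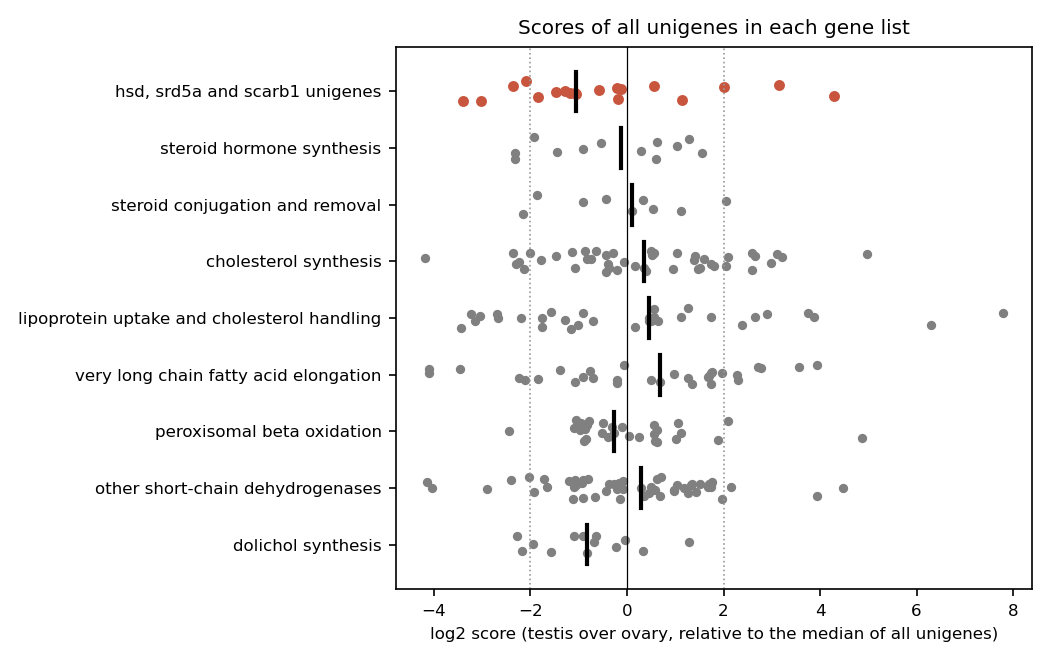
Scores (log2 testis over ovary, relative to the median of all unigenes) of the 19 member unigenes (top row) and of the unigenes in each of 8 pathway lists; thick bars are medians, dotted lines mark 4-fold and points are spread vertically for legibility. The members' median is -1.05, and the medians of the lists lie between -0.83 and 0.69.

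Oocyte markers, chosen with earlier results of these data known, also lay on the ovary side. All 25 oocyte marker unigenes had scores from -4.64 to -1.53, with a median of -3.82, beside -3.39 for scarb1 and -3.03 for hsd17b12a. Their part in these values was not tested. The unigenes closest to a member in log2 level over the 2 libraries were then looked up, a likeness that rests on 2 values per unigene. For scarb1 they were cobll1a (48 testis and 665 ovary reads, distance 0.0701) and vldlr, a receptor of the lipoprotein receptor family (47 testis and 689 ovary reads, distance 0.0915). For hsd17b12a they were the lactate dehydrogenase ldha (146 testis and 1437 ovary reads, distance 0.118) and LOC100334275 (140 testis and 1361 ovary reads, distance 0.125). For srd5a1 they were ccar2 (21 testis and 150 ovary reads, distance 0.0291) and decr2 (20 testis and 148 ovary reads, distance 0.0692). For the larger hsd11b1l unigene they were nsdhl, a sterol dehydrogenase of cholesterol synthesis (33 testis and 195 ovary reads, distance 0.0450), and znf740b (32 testis and 187 ovary reads, distance 0.0462).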

How the data were processed

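Libraries were prepared from total gonad RNA with an Ultra RNA kit from NEB, per the labels' protocols. For the aligner, assembler, counting tool and genome build a name is not given in the sources used here. In the deposited tables, each unigene has a signal for each library, in steps of 1 constant size per library, per the values. How the authors set these steps is not named in the headers. The step was started from the lowest value of a library and refined on larger values. Dividing by it gave whole reads within 0.01 read for 22633 testis and 22632 ovary values of 22634, and for all 19 members. Whether a step is 1 read or more was not tested. Log2 fold changes deposited by the authors are testis over ovary, as recomputed here within 0.001 for all 22487 unigenes of the expression table. The deposited p-value comes from the authors, with its test and adjustment unnamed in the headers.

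To the 22487 unigenes were added 147 that only the testis list holds, none of them a member. No count model was run, as neither tissue has a second library. Scores used a pseudocount of 1 unit. Intervals and scores were tried on simulated data that took 1 step as 1 read and counting error as the only error. Such data cannot show whether these settings hold for the 2 libraries. Member symbols, pathway lists and markers were chosen with earlier results of these data known. All members are named. Of each list, up to 4 unigenes farthest from the median of all unigenes were named. Further unigenes were added where they differed from these in direction or size. List symbols matched the first gene name, allowing a paralogue letter or a dotted number. Of the 12 member symbols 7 matched a RefSeq symbol of assembly ASM1834038v1, used for names only. The carp genome is duplicated, so similar unigenes may share reads and the value of any single one is uncertain. Unigene lengths are not in these tables, so no gene was called higher or lower than another. The search for unigenes of like level used the deposited values without a length correction. Python 3.11.15, pandas 2.3.3, numpy 2.4.6 and scipy 1.17.1 were used. Alternatives were pseudocounts of 0.1 and 10, other centrings, other floors and fold thresholds, the table alone, and unigenes of one symbol summed.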

Additional observations from a re-analysis of the deposited data

How the results depend on the processing

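No paired analysis was possible because each tissue has 1 library. The number of members at least 4-fold higher in testis was 3, and became 1 with a pseudocount of 10 and 1 of 12 after summing each symbol's unigenes and centring on the median of all symbols. Centred on the median of all unigenes instead, an alternative chosen after seeing the data, the sums gave 0 of 12. The number at least 4-fold lower in testis was 4, and became 8 as deposited, 2 centred within number range, 10 at a 2-fold threshold and 2 at an 8-fold threshold. The members' median score of -1.05 was -0.75 with a pseudocount of 10, -1.88 as deposited, -0.33 within number range and -0.85 with symbols summed. Summing, with scores centred on the median of all symbols, turned the direction of Unigene_358 of hsd17b14 (2.04), whose partner holds more testis reads, and of Unigene_54861 of hsd11b1l (-0.83) and Unigene_54461 of hsd17b7 (-1.36), whose partners hold more ovary reads.

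Over the pathway lists, 27 unigenes higher in testis became 14 with a pseudocount of 10, 13 as deposited, 11 within number range, 8 with symbols summed (7 on the median of all unigenes), 60 at 2-fold and 11 at 8-fold. The 29 lower in testis became 46 as deposited, 14 within number range, 12 with symbols summed (18 on the median of all unigenes), 57 at 2-fold and 10 at 8-fold. The trimmed mean, the expression table alone, a pseudocount of 0.1, no floor and a floor of 20 units kept these 4 counts within 1.5 times. Members with 1 or 2 reads in a library have wide intervals, and for Unigene_12046 of hsd17b12b and Unigene_358 of hsd17b14 these hold the median ratio.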
